A study of Homo sapiens with 2 samples.

Results

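The strong RBFOX2-library sites are 1220 C-to-U positions in 370 genes, out of 121930 distinct positions listed for the RBFOX2 library and 213041 listed for either library. They were chosen by their own readout. A position was kept when at least 5 reads carried the conversion, when converted reads made up less than 10% of the reads of its gene, when the enzyme-only library did not list it, and when both tables listed the gene. Of the 116842 RBFOX2-library positions in genes of both tables, 1.04% met this rule. The study compared 2 libraries, 1 per group, of methanol-fixed HEK293T cells, a human embryonic kidney line that the labels call HEK293XT. In the RBFOX2 library a rabbit antibody against endogenous RBFOX2 was bound first, followed by purified APOBEC1, a cytidine deaminase, fused to a nanobody that holds the antibody. The enzyme-only library received the fusion without the antibody, so both libraries carry the edits of the free enzyme. Full-length cDNA was then read by PacBio sequencing. No genotype, drug or time distinguishes the libraries.

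RBFOX2 is an RNA-binding protein with a single RNA recognition motif that binds UGCAUG, and more weakly the shorter core GCAUG. It is best known for setting the inclusion of alternative exons from sites in the flanking introns, and it also binds 3'UTRs of mature mRNAs. APOBEC1 deaminates cytosine to uracil and acts mainly where the base before the cytosine is A or U and the surrounding RNA is rich in A and U. Spliced cDNA holds few introns, so the positions described here are those of mature mRNAs.

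Each value below is the number of converted reads at a position over the reads of the whole gene, the 1 read total that the tables give per gene and library. No listed fraction in either table was at or below 0.2%, which is taken here as the listing limit, although the rule behind it is not given in the sources used here. A position missing from the enzyme-only table may therefore hold some converted reads, and the highest whole number of reads not above 0.2% of the gene's enzyme-only reads is given as its limit. The gene of a strong site had a median of 1642 reads (102 to 13433) in the RBFOX2 library, against 1309 (111 to 13435) without the antibody. With 1 library per group there is no replicate check and no test. Intervals are exact Clopper-Pearson 95% intervals, which cover counting error only, and every contrast is between these libraries rather than between conditions. The tables list edits and not expression, so the cell line was not checked against marker genes.

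Sequence around the sites shows where the conversions fell. The windows below are 30 nt long in the hg38 sense-strand sequence, and capitals mark the edited cytosine and any UGCAUG, written TGCATG in DNA letters. The first set holds strong sites of the highest converted read counts with the hexamer within 50 nt. The hexamer took no part in the rule for strong sites, but these windows were picked for it. Only 12.4% of all strong sites have it within 50 nt. For H3-3B the site with 33 converted reads is marked, and a neighbour has 34.
PDHA1 (chrX:19359791-19359820, plus strand, 3'UTR): tagtaatTGCATGcagtttgtaCattagtg
PGRMC1 (chrX:119243665-119243694, plus strand, 3'UTR): aattgacttaaCTGCATGatttctgtttta
CALM2, distal hexamer (chr2:47160546-47160575, minus strand, 3'UTR): taacatgtTGCATGtggcttaCtctggata
CALM2, proximal hexamer (chr2:47160643-47160672, minus strand, 3'UTR): ataTGCATGtatagtaattaggacttCatt
YWHAQ (chr2:9584504-9584533, minus strand, 3'UTR): aattaaagTGCATGtcatttCttaatacac
JUN (chr1:58781750-58781779, minus strand, 3'UTR): ccaagaacTGCATGgacctaaCattcgatc
H3-3B (chr17:75778337-75778366, minus strand, 3'UTR): tcttgcttCtcatgaTGCATGtttctgtat
EIF4A1 (chr17:7577669-7577698, plus strand, coding): agaagaTGCATGctcgagatttCactgtat
SLC25A5 (chrX:119470975-119471004, plus strand, coding): aagggTGCATGgtccaatgttctCagaggc
The second set shows the most converted sites of abundant mRNAs, where the nearest UGCAUG was over 1000 nt away.
ACTB (chr7:5527172-5527201, minus strand, 3'UTR): tacctgtacactgaCttgagaccagttgaa
PTMA (chr2:231713072-231713101, plus strand, 3'UTR): gccctgctttttttCttaaaagtactttaa

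Of the sites printed above, that in the 3'UTR of PDHA1 had the highest edit fraction. The gene encodes the E1 alpha subunit of pyruvate dehydrogenase. Its cytosine at chrX:19359813, 10 nt 3' of the hexamer, was converted in 27 of 772 reads (3.50%). The enzyme-only library did not list it among 683 reads, a limit of 1 read. In PGRMC1, which encodes a membrane-bound heme-binding protein, the cytosine directly 5' of the hexamer at chrX:119243676 was converted in 22 of 1090 reads (2.02%), against a limit of 1 of 989. The 3'UTR of SKP1, a subunit of SCF ubiquitin ligases, held a site at chr5:134157557 with 20 converted reads of 1387 (1.44%), 30 nt 3' of a hexamer, against a limit of 2 of 1260. The isoform models join SKP1 with PPP2CA, so those read totals cover both genes. In these sites the RBFOX2 library lay at least 10 times above the enzyme-only limit in reads.

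CALM2, 1 of the genes that encode calmodulin, held more strong sites than any other gene, 45 of the 1220. The RBFOX2 library held 1816 reads of the gene and listed 74 positions, the enzyme-only library held 1271 reads and listed 26, and 20 positions were shared. The 45 sites summed to 441 converted reads, with a maximum of 21 at a single position. Of them, 31 lay in the 3'UTR and 14 in coding sequence. The largest run of neighbouring strong sites in the whole set was in the CALM2 3'UTR, with 19 sites over 234 nt at chr2:47160450-47160683, and 16 of the 19 were within 50 nt of UGCAUG. Around the distal hexamer, positions 4, 8, 10 and 20 nt 3' of it were converted in 5, 17, 16 and 9 reads, and those 5 and 12 nt 5' of it in 14 reads each. Around the proximal hexamer, positions 15 and 18 nt 3' of it had 19 and 21 converted reads, and those 10 and 14 nt 5' of it had 12 and 9. Every one of these positions had an enzyme-only limit of 2 reads. A second CALM2 run of 9 sites over 148 nt, at chr2:47160190-47160337, had no hexamer within 50 nt of any of its sites and reached 21 converted reads too.

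YWHAQ, which encodes the 14-3-3 protein theta, had 23 strong sites, all in the 3'UTR, with 2035 and 1983 reads of the gene in the RBFOX2 and enzyme-only libraries. Of the 8 sites in a run of 133 nt, 5 lay within 50 nt of a hexamer. The sites 7 and 14 nt 3' of it had 18 and 16 converted reads, those 16 and 42 nt 3' of it had 7 each, and the site 26 nt 5' of it had 10, against a limit of 3 reads. No enzyme-only position was listed within 50 nt of any of the 5. JUN, an immediate-early transcription factor, had 11 strong sites in its 3'UTR, 6 of them around a hexamer, with 1280 reads in the RBFOX2 and 1309 in the enzyme-only library. The JUN cytosine at chr1:58781758, 8 nt 3' of the hexamer, was converted in 17 reads, and the cytosine directly 5' of the hexamer in 8, against a limit of 2. In H3-3B, a gene for the replacement histone H3.3, 4 sites flanked a hexamer with 33, 18 and 34 converted reads at 7, 14 and 17 nt 5' of it and 14 reads at 4 nt 3' of it. The H3-3B totals were 6281 and 5280 reads, which put the enzyme-only limit at 10 reads. In these genes strong sites stood on both sides of the hexamer.

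**Figure D1:**
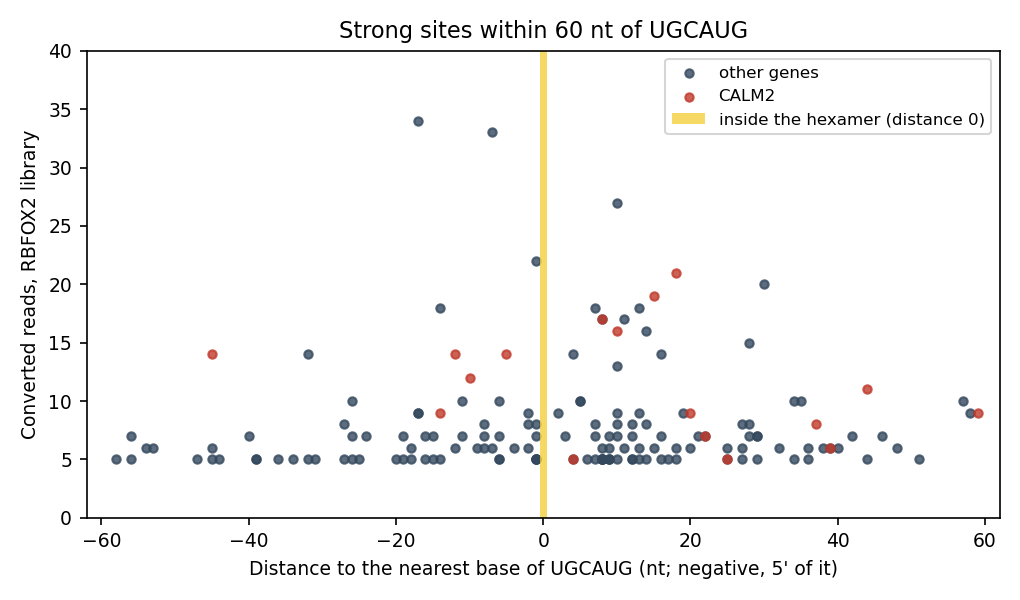
Converted reads in the RBFOX2 library for each strong site within 60 nt of UGCAUG, by distance to the nearest base of the hexamer (negative, 5' of it). CALM2 is in red, the other genes are in dark blue, and the yellow band marks the hexamer, inside which no strong site lay. The highest points are the H3-3B sites with 34 and 33 reads, 17 and 7 nt 5' of the hexamer, followed by the PDHA1 site with 27 reads, 10 nt 3' of it.

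Over all members, 151 of 1220 strong sites (12.4%, interval 10.6 to 14.4%), in 75 genes, lay within 50 nt of UGCAUG. Among the 319627 exonic cytosines of the same genes, 2.61% did. Weighted by the number of strong sites per gene this became 3.12%, so the share was 3.96 times that reference (3.39 to 4.60). When the reference was restricted to cytosines of the same gene, the same region and the same preceding base, it rose to 5.004% and the ratio was 2.47. The reference counts each exonic position of the isoform models once, whatever its read depth. Distances were read along the genome, and along spliced isoform models 163 sites (13.4%) lay within 50 nt, against 3.23% of cytosines. Most strong sites were away from the hexamer all the same, with 927 (76.0%) over 200 nt from it.

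The share near UGCAUG was higher for strong sites than for positions with fewer converted reads. In the genes with a strong site, unshared positions with 2 to 4 converted reads lay near the hexamer in 8.37% of 3858 cases (7.52 to 9.29%). Positions with 1 converted read, which only genes below 500 reads can list, did so in 5.15% of 2177 (4.26 to 6.16%). These 2 sets came from 286 and 60 of the 370 genes, so gene and depth differ between the sets. Of the 956 positions that met the read and fraction limits but were also listed in the enzyme-only library, 7.01% lay near it (5.47 to 8.82%). Exchanging the libraries in the rule gave 232 strong enzyme-only sites in 125 genes, 0.234% of 98993 eligible positions, of which 4 (1.72%, 0.472 to 4.36%) lay within 50 nt of UGCAUG, against 1.80% of cytosines in their genes. Counted by site, the interval of the strong sites overlapped none of these 4. Strong sites close together share reads, and with 1 site per run of strong sites at most 50 nt apart the share was 10.6% (8.52 to 12.9%), which overlapped the intervals of the positions with 2 to 4 reads and of the shared positions. Within the strong sites no order by read count was resolved. The share was 11.1% at 5 reads, 12.7% at 6 to 7, 13.4% at 8 to 9, 10.8% at 10 to 14 and 18.2% at 15 or more (10.8 to 27.8%), with overlapping intervals.

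**Figure D2:**
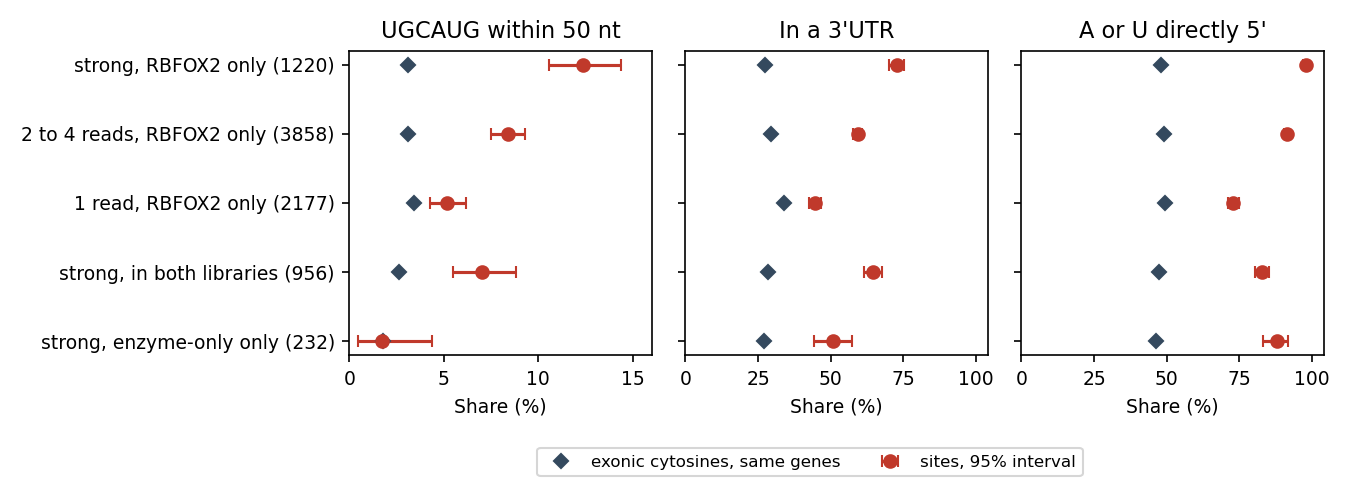
Shares of sites near UGCAUG, in a 3'UTR and after an A or U, for the strong sites and 4 comparison sets, with the number of sites in each set. Red points are sites with exact 95% intervals and dark diamonds are exonic cytosines of the same genes. Strong sites stand at 12.4%, 72.7% and 97.8%, the highest value of the 5 sets in each panel.

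Depth differed between the sets and is part of the rule. Of the 1220 sites, 1104 lay in genes with more reads in the RBFOX2 than in the enzyme-only library, by a median ratio of 1.13 over the 370 genes. In the 2297 genes with at least as many enzyme-only reads, 116 strong RBFOX2-library sites stood against 17 strong enzyme-only sites, and 14.7% of the 116 lay near UGCAUG (8.78 to 22.4%). In the other 5903 genes the numbers were 1104 against 215, with 12.1% near (10.3 to 14.2%). The intervals of these shares overlapped, and the part of depth in the counts was not tested.

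The share also differed by edit fraction, which the rule used only as an upper limit. It was 6.34% (4.55 to 8.57%) for the 615 sites of 0.2 to 0.4%, 15.98% (12.8 to 19.5%) for the 488 sites of 0.4 to 1%, and 29.1% (21.04 to 38.2%) for the 117 sites of 1% or more. The same-gene, same-region, same-base reference rose from 3.18% over 6.13% to 9.93% across these classes. By gene reads, the share fell from 28.4% of 81 sites in genes of 51 to 500 reads to 19.0% of 205, 10.8% of 657, and 6.50% of 277 sites in genes of over 2500 reads. A site with 5 converted reads has a high fraction in a gene with few reads, so these splits are not independent.

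**Figure D3:**
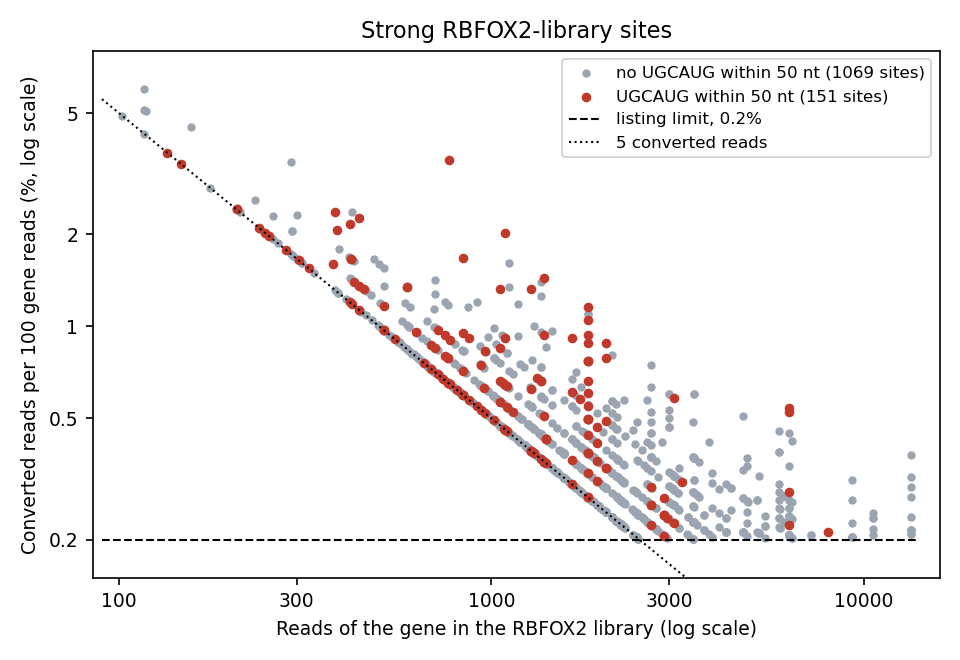
Edit fraction in percent of gene reads against the reads of the gene in the RBFOX2 library, both on log scales, for the 1220 strong sites. Red points have UGCAUG within 50 nt, the dashed line is the listing limit of 0.2% and the dotted line is 5 converted reads. Red points are spread over the whole range and sparse among the genes of over 2500 reads.

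By distance, strong sites were densest in the 20 nt on either side of the hexamer. Of the 151, 62 lay 5' and 89 lay 3' of it, the median distance was 15 nt, 99 were within 20 nt and 55 within 10 nt. At 1 to 10 nt 3' of the hexamer there were 32 sites, 10.03 times the number expected from exonic cytosines (6.89 to 14.1), and at 1 to 10 nt 5' there were 23, a ratio of 6.58 (4.18 to 9.83). At 11 to 20 nt the ratios were 6.76 on the 3' side and 4.85 on the 5' side, and at 21 to 50 nt they were 3.01 and 1.78. Beyond 100 nt and up to 200 nt the ratios were 1.31 and 1.37, with intervals that reached 1. The expectation for these bins was not matched for region or preceding base. For all sites within 20 nt the ratio was 6.12, and 3.86 with that match. No strong site lay inside UGCAUG, where 1.89 were expected, a deficit within the counting error. Its cytosine follows a G, a base that preceded only 1.39% of strong sites.

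**Figure D4:**
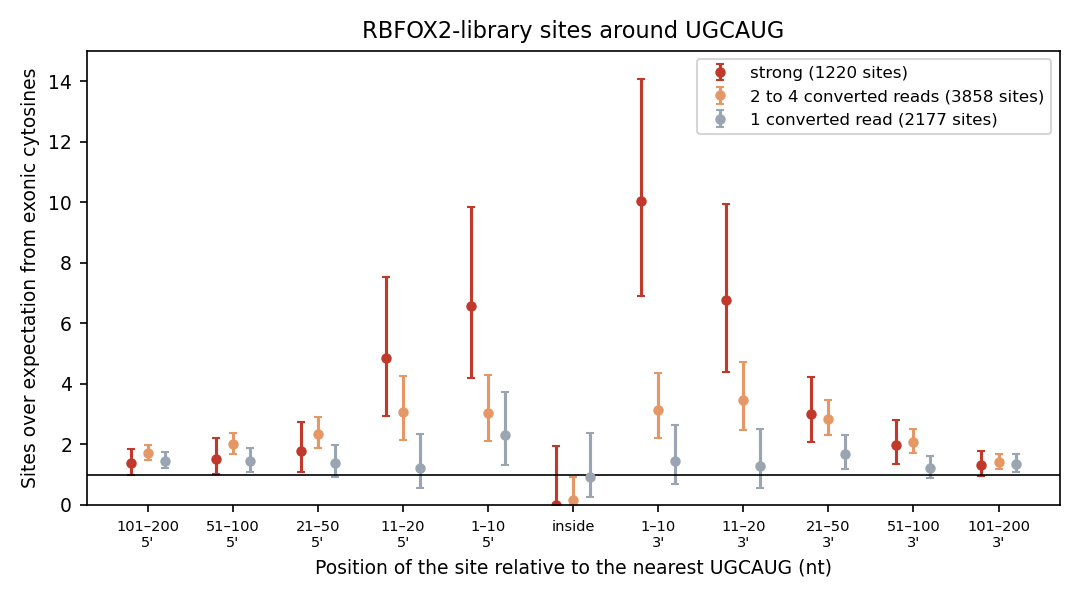
Observed over expected number of RBFOX2-library sites by position relative to the nearest UGCAUG, with 95% intervals. Strong sites are red, sites of 2 to 4 converted reads orange and sites of 1 read grey, and the line marks 1. All are unshared and lie in genes with a strong site, in 370, 286 and 60 of them, respectively. Strong sites peak at 10.03 directly 3' of the hexamer, where sites of 2 to 4 reads have 3.14 and sites of 1 read 1.45. The expectation is not matched for region or preceding base.

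Among 3269 hexamers expected near at least 10 runs of strong sites, UGCAUG ranked first by the ratio of observed to expected. It lay within 50 nt of the most converted site in 84 of 795 runs, against 22.8 expected (3.69 times), where a run joins strong sites at most 50 nt apart. The next were UAUAUA (57 runs, 3.04 times), AUGCAU (51, 2.96 times) and GCAUGU (53, 2.54 times). AUGCAU and GCAUGU share bases with UGCAUG. For UGCAUG the ratio was 2.57 against cytosines of the same gene, region and preceding base. No such match was made for the other hexamers. The reverse complement CAUGCA, read on the same strand, was near 4.02% of strong sites (2.99 to 5.28%) against 2.00% of cytosines. The words can share bases, and without sites that also had UGCAUG, 25 sites (2.05%) remained against 1.73%. The pentamer GCAUG was near 247 sites (20.2%, 2.32 times its reference), and 96 sites (7.87%, against 5.64%) had GCAUG but no UGCAUG. Of the other pentamers described for RBFOX proteins, GUAUG stood at 1.53 times, GAAUG at 1.42, GUUUG at 1.32, GCUUG at 1.06, GUGUG at 0.974, GCACG at 0.440 and GCCUG at 0.436. The order runs from A- and U-rich to G- and C-rich words, and the same reference gives no weight to the base content around the sites.

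Most strong sites were in 3'UTRs, 887 of 1220 (72.7%, 70.1 to 75.2%), against 27.4% of exonic cytosines in the same genes. Coding sequence held 320 (26.2%), 5'UTRs 11, noncoding exons 2 and introns none. Of the same reference, 28.8% was coding, 11.9% 5'UTR, 13.6% noncoding exon, 14.6% annotated intron and 3.68% unannotated. It counts each position of the isoform models once, whatever its read depth, so this is not a contrast at equal coverage. The 3'UTR share was 59.2% among positions with 2 to 4 converted reads, 44.7% among those with 1, 64.5% among strong positions shared with the enzyme-only library and 50.9% among strong enzyme-only sites (44.2 to 57.5%). Both regions held sites beside the hexamer. In 3'UTRs 13.6% of strong sites were within 50 nt of it (11.5 to 16.1%), against 5.80% of cytosines of the same gene, region and preceding base. In coding sequence 9.38% were (6.42 to 13.1%), against 2.95%. Of 314 coding sites whose codon could be read in the canonical transcript, the conversion left the amino acid unchanged in 169 (53.8%, 48.1 to 59.4%), changed it in 129 (41.1%) and made a stop codon in 16 (5.10%, 2.94 to 8.14%). Over coding cytosines after A or U in these genes the shares were 45.0%, 47.5% and 7.50%. The EIF4A1 and SLC25A5 sites printed above were synonymous.

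The base before the cytosine was A in 63.0% and U in 34.8% of strong sites. Together these made 97.8% (96.8 to 98.5%), against 48.0% of exonic cytosines. Strong enzyme-only sites followed A or U in 87.9% (83.0 to 91.8%), positions with 2 to 4 converted reads in 91.4% and positions with 1 read in 72.9%. All 236 strong sites with 10 or more converted reads followed A or U. The base after the cytosine was U in 52.1%. Within the 41 nt centred on the site, A and U made up a median of 63.4% for strong sites, 56.1% for strong enzyme-only sites and 48.8% for exonic cytosines.

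Strong sites lay close to one another. Another listed RBFOX2-library position stood within 50 nt of 1001 of them (82.1%, 79.8 to 84.2%), against 54.5% of cytosines of the same gene, region and preceding base, and another strong site stood within 50 nt of 626 (51.3%). Enzyme-only positions were also near, within 50 nt of 749 sites (61.4%, against 41.2% for matched cytosines) and within 10 nt of 289. RBFOX2-library neighbours outnumbered enzyme-only neighbours at 815 sites and were outnumbered at 118. No listed position of either library stood within 50 nt of 163 sites (13.4%). The comparison sets had such neighbours too. RBFOX2-library positions stood within 50 nt of 79.8% of positions with 2 to 4 converted reads and 88.1% of those with 1. For strong positions shared with the enzyme-only library the share was 77.0%, and for strong enzyme-only sites 50.4%. Enzyme-only neighbours were found for 59.1%, 72.1%, 66.0% and 40.95% of these sets, in that order. Neither share was thus particular to the strong sites. The hexamer was near 15.02% of strong sites with another strong site within 50 nt and 9.60% of the 594 without. Neighbouring positions come from the same reads and genes and are not independent.

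The sites fell into 795 runs, of which 201 held 2 or more sites and 27 held 5 or more. UGCAUG lay within 50 nt of a site in 87 runs (10.9%) and in 7 of the 27 longest. After CALM2, the longest runs were those of SUMO2, a ubiquitin-like modifier, with 12 sites over 177 nt, CYCS, which encodes cytochrome c, with 12 over 194 nt, PRDX3, a mitochondrial peroxiredoxin, with 11 over 173 nt, and C1QBP and ATP5MC3, a subunit gene of ATP synthase, with 10 each over 120 and 158 nt. None of the sites in these runs had UGCAUG within 50 nt. In SUMO2, CYCS, C1QBP and ATP5MC3 no exonic cytosine of the gene lay that near, so the absence was fixed by their sequence. Only in PRDX3, where 11.1% of exonic cytosines did, could it have differed. Dense conversion was thus present both with and without the hexamer.

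Sites were spread unevenly over genes. Of the 6338 genes of both tables with over 50 RBFOX2-library reads, the fewest that allow 5 converted reads under 10%, 370 (5.84%) held a strong site. The share rose with depth, from 60 of 5427 genes with 51 to 500 reads to 112 of 604, 148 of 245 and 50 of 62 genes with over 2500 reads. A single site was found in 176 genes, at least 5 in 78 and at least 10 in 25, and these 25 held 382 of the sites. After CALM2 came PRDX3 with 25 sites, YWHAQ with 23, CYCS with 21, HMGN1, a nucleosome-binding protein gene, with 19, SUMO2 and MORF4L2 with 17 each, SLC25A5 and RHOA with 15 each, and HNRNPAB, EIF4G2 and PTGES3 with 14 each. MORF4L2, a chromatin factor of the MORF4 family, had 4 sites near UGCAUG, all in coding sequence with 5 to 15 converted reads, and PRDX3 and SLC25A5, an ADP/ATP carrier, had 2 each. CYCS, HMGN1, SUMO2, the small GTPase gene RHOA, HNRNPAB, EIF4G2 and PTGES3 had none. For CYCS, SUMO2 and RHOA no exonic cytosine lay within 50 nt of the hexamer, so no exonic site could. In HNRNPAB, an hnRNP gene, the enzyme-only library was the deeper one (3084 against 3002 reads), and its 14 sites reached 18 converted reads.

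**Figure D5:**
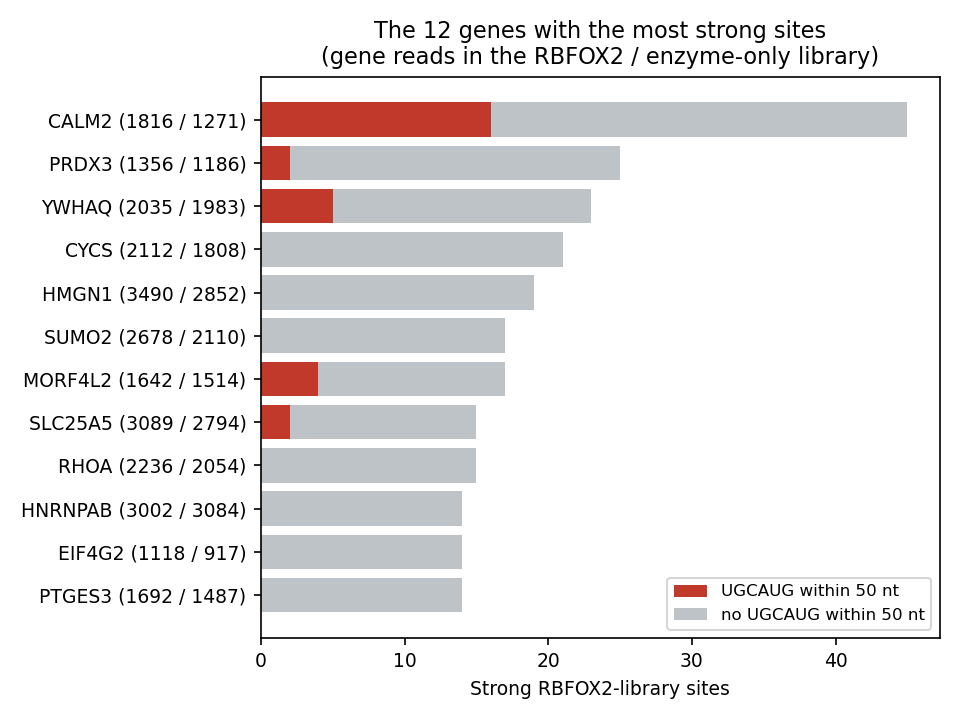
Strong sites in the 12 genes that held the most, with gene reads in the RBFOX2 and enzyme-only libraries in parentheses. Red marks sites with UGCAUG within 50 nt and grey the rest. CALM2 leads with 45 sites, 16 of them near the hexamer, and 7 of the 12 genes have none near it. Of these, CYCS, SUMO2 and RHOA have no exonic cytosine near it.

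By read count, the top sites came from the most abundant mRNAs. ACTB, which encodes beta-actin, had 10 strong sites with up to 51 converted reads of 13433 (0.380%), where the enzyme-only library had 13435 reads and a limit of 26. Further ACTB sites had 43 reads (0.320%) and 40 reads (0.298%), and none of its sites was within 50 nt of UGCAUG. The most converted PTMA site, in the gene of prothymosin alpha, had 29 of 9274 reads (0.313%), against a limit of 14 of 7059. The fractions of these sites lay above the listing limit of 0.2% and below the median of all strong sites, 0.398%. In genes of this depth an unlisted enzyme-only position can hold more converted reads than the rule asks of a strong site, and 229 of the 1220 sites had a limit of 5 reads or more. The limit was 0 for 97 sites, 1 for 256, 2 for 336 and 3 or 4 for 302.

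Gene groups differed in how many members held a strong site, beside a value of 5.84% and a median of 2 sites per gene over all eligible genes, which had a median of 177 reads. Median reads of the eligible genes of each group are given because depth moves with the counts, and its part was not tested. Among RNA-binding and splicing regulators 31 of 96 genes (32.3%, median 552 reads) held 137 sites, with 6 near UGCAUG, led by HNRNPAB with 14, the SR protein gene SRSF9 with 12 and HNRNPK with 11. Chaperones had 22 of 67 genes (32.8%, median 326 reads) and 95 sites, 4 near the hexamer, led by the chaperonin subunit gene CCT2 with 9 and by PPIA and PDIA6 with 8 each. Cytoskeleton genes (median 290 reads) had 9 of 43 and 37 sites, none near, led by ACTB, STMN1 with 9 and TPM3 with 6. Genes of mitochondrial respiration and ATP synthase (median 332 reads) had 10 of 86 and 51 sites, none near, led by CYCS, ATP5MC3 with 11 and ATP5F1B with 6. Sites near the hexamer were few in all 4 of these groups. CYCS, ATP5MC3 and HNRNPK had no exonic cytosine near the hexamer, so their exonic sites could not lie near it.

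The group of signalling genes, which holds CALM2, 14-3-3 proteins and phosphatases, had 9 of 70 genes with a strong site (12.9%, median 202 reads). These held 103 sites, of which 33 (32.0%) were near UGCAUG, against 12.4% of all strong sites. CALM2 and YWHAQ contributed 16 and 5 of them. The PPP2CA locus, which also covers SKP1, had 10 sites, 6 near the hexamer. In the LASR complex, a set of splicing factors that binds RBFOX proteins, 4 of 6 genes held 22 sites, with a median of 948 reads, namely HNRNPC with 7, HNRNPM with 6, MATR3 with 5 and DDX5 with 4. MATR3 had 4 of its 5 sites near UGCAUG, all in the 3'UTR with 5, 8, 14 and 5 converted reads of 838, against an enzyme-only limit of 1 of 670. HNRNPC, HNRNPM and DDX5 had none near it, and HNRNPM had no exonic cytosine near it.

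The remaining groups had medians of 167 reads (solute carriers and pumps) to 554 (ribosomal proteins). Chromatin and nucleosome genes had 14 of 83 genes with 95 sites, 9 near the hexamer, led by HMGN1, MORF4L2 and H3-3B. The list of secretory and vesicle genes had 15 of 145 with 23 sites, 6 near, led by ARF4 with 4, ARF1 with 3 and AP3S1 with 2. That list also took in COPS3 and COPS8, subunit genes of the COP9 signalosome, with 2 sites each. Its counts are therefore not those of vesicle genes alone. Ubiquitin and proteasome genes had 19 of 165 with 52 sites, 3 near, led by SUMO2, PSMA1 and PSMD10. Ribosomal protein genes had 8 of 62 with 24 sites, 21 of them coding. RPL7 held 8 of the 24, with 4 near the hexamer, followed by RPL5 with 5 and RPS7 with 4. Translation factors had 9 of 49 with 31 sites, led by EIF4G2 with 14 and then EIF4A1 and PABPC1 with 3 each. Solute carriers and pumps had 10 of 115 with 34 sites, led by SLC25A5, ATP6V1G1 with 5 and ATP6V0B with 3. Core spliceosome genes had 6 of 49 with 11 sites, led by SF3B6 with 3 (2 near) and then LSM4 and SNRPB with 2 each. Cell cycle genes had 7 of 112 with 11 sites, led by CDKN2A with 4, CDK2AP1 with 2 and CDC42 with 1. Nuclear transport genes had 4 of 51 with 8 sites, led by RAN with 4, RANBP1 with 2 and KPNA2 with 1, and none near. Ribosomal protein, PPIA, HMGN1 and H3-3B genes have close processed copies in the genome, and reads of such genes can be assigned to a copy.

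None of the genes that the study discussed for RBFOX2 held a strong site. Apart from PKM, they lay in depth classes where most genes held none. A strong site was found in 60 of 5427 eligible genes with 51 to 500 reads (1.11%). In the next class, which holds APP, it was found in 112 of 604 (18.5%). The absence alone therefore does not set these genes apart. The study showed its targets by short-read edit clusters or by editing per isoform, and neither was repeated here. APP had 637 reads and 1 position with 5 converted reads, which the enzyme-only library listed too. DEPDC1, DCUN1D4 and OGT had 346, 148 and 214 reads and at most 2 converted reads at any position, and RBFOX2 itself had 247 reads and at most 1. PKM had 2 positions of at least 5 converted reads but was not listed in the enzyme-only table, so its sites could not meet the rule.

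Strong sites mostly lay in the majority of the isoform models of their genes, with each model counted once whatever its reads. No share for other exonic cytosines is given beside these values. A site lay in the exons of a median of 84.2% of the isoform models of its gene, 238 sites were in every model and 81 (6.64%) in under 50% of them. Since reads are counted per gene, fractions of the latter are understated. The rule's limits were close to the bulk of the members. Of the 1220, 458 had exactly 5 converted reads, and 1002 more positions with 4 reads lay just outside. Medians were 6 converted reads (quartiles 5 to 8) and an edit fraction of 0.398% (quartiles 0.276 to 0.628%, range 0.201 to 5.98%). The upper limit of 10% took out 1 position, at 16.7%, while the highest member stood at 5.98%.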

How the data were processed

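Edit tables of 2 long-read libraries, 1 RBFOX2 and 1 enzyme-only, were analysed in hg38 coordinates. Groups came from the descriptions in the labels. Per position, the authors deposited a count of converted reads, the read count of its gene and an edit fraction, which is their quotient. Exon positions came from the deposited isoform models. In the study's methods, reads were aligned with pbmm2, primary alignments were kept and edits were called with the authors' code. The labels name an Iso-Seq kit and the methods name Kinnex, so the tables may come from another run. Removal of dbSNP variants was not repeated. Reads of the listed genes summed to 2430911 in the RBFOX2 and 2233113 in the enzyme-only library.

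Genes and regions came from GENCODE 44 by same-strand exons, with coding sequence before 3'UTR, 5'UTR, noncoding exon and intron. A site was named for the annotated gene whose exon holds it, and 28 sites thus differ from the name of their locus. Positions were matched to the rule with pandas 2.3.3. Expected shares were means over exonic cytosines of each site's gene, and intervals were computed with scipy 1.17.1. The distance and expectation steps were tested on simulated data. No test was possible with 1 library per group. Members, gene lists and measures were chosen with earlier results of these data known. Named were the 10 genes with the most sites (extended over a tie), the 10 sites with the most converted reads, the 15 such sites near UGCAUG, the genes the study discussed, the leading 3 genes of each list (1 of them is not reported here), and the limits of the rule. Genes given beside them, such as MATR3 and C1QBP, and the pairs beside a hexamer were picked after their values were seen. Alternatives covered the read, fraction and depth limits, windows, regions and 1 site per gene. Removing CALM2, taking 1 site per run and using canonical transcripts were added after seeing the data, as was the reference of the same gene, region and preceding base.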

Additional observations from a re-analysis of the deposited data

Results flagged for a closer look

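Strong positions of genes that only 1 of the tables lists entered no comparison. In the RBFOX2 library there were 63 such positions in 19 genes, of which 12 (19.0%, 10.2 to 30.9%) lay within 50 nt of UGCAUG. In the enzyme-only library there were 13 in 9 genes, of which 0 lay within 50 nt of it, with an upper bound of 24.7%. The intervals overlapped. They were singled out because the share lay above that of the enzyme-only library. SERBP1, which encodes an mRNA-binding protein, had 27 of 5100 reads converted 19 nt 3' of a hexamer and 13 reads converted 16 nt 3' of it. HSP90AA1, a heat shock protein gene of 6410 reads, had 17 converted reads directly 5' of a hexamer and 14 reads at each of 2 further positions.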

How the results depend on the processing

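Of 65 recomputed values, 35 stayed within the limits of the original value, which were its 95% interval for a share and 1.5 times for a count, and 30 moved. With at least 3 converted reads there were 5042 sites in 1296 genes, 8.95% of them near UGCAUG, 63.1% in 3'UTRs, 94.7% after A or U and 78.3% with an RBFOX2-library neighbour. With at least 10 there were 236 sites in 80 genes, 80.1% in 3'UTRs, 100% after A or U and 84.3% with such a neighbour. Restricting to genes of at most 1000 enzyme-only reads left 353 sites in 200 genes, 19.3% near UGCAUG, 77.1% in 3'UTRs, 90.1% with an RBFOX2-library and 72.0% with an enzyme-only neighbour. Leaving out sites with an enzyme-only position within 10 nt gave 78.0% with an RBFOX2-library neighbour. The share near the hexamer was 8.11%, 17.1% and 24.0% for windows of 20, 100 and 200 nt. These were 6.12, 2.93 and 2.19 times the exonic cytosines. Against cytosines of the same gene, region and preceding base the ratios were 3.86, 1.92 and 1.48. The share was 20.2% for GCAUG, 15.1% for 1 site per gene and 10.6% (8.52 to 12.9%) for 1 site per run. Taking 3'UTR before coding sequence gave 83.2%. RBFOX2-library neighbours were found for 64.5% at 20 nt, 88.0% at 100 nt and 77.3% with 1 site per gene, and enzyme-only neighbours for 37.7% and 76.1% at 20 and 100 nt. Without CALM2, 11.5% of sites lay near UGCAUG, 4.09 times the exonic cytosines and 2.69 times those of the same gene, region and preceding base. The cause of these shifts was not tested beyond the change that each setting makes. No paired analysis was possible because each group has 1 library. Genes below 51 reads cannot hold a strong site, and in genes of over 2500 reads the listing limit exceeds 5 reads.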
